A study of Rattus norvegicus with 24 samples.

Results

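The genes described here are those of the white fat cell and of triglyceride storage, measured in the abdominal mammary glands of prepubertal rats given estradiol. A list of 40 genes was set by name, and every probe set annotated to exactly 1 of them was taken. Of the 40, 39 were found, through 65 of the 31042 probe sets tested, among 14217 genes in all, and Retn, which encodes resistin, was not analysed here. They comprised 5 transcriptional regulators, 3 adipokines (hormones and secreted factors of fat cells), 7 genes of uptake and the lipid droplet, 8 of triglyceride assembly, 12 of fatty acid synthesis and 4 of lipolysis.

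A white fat cell takes up glucose and fatty acids, joins fatty acids to a glycerol backbone, and keeps the resulting triglyceride in a droplet coated with perilipins until lipases release it. The nuclear receptor encoded by Pparg and the leucine zipper factor encoded by Cebpa maintain this program together. In the rodent mammary gland the ducts grow into a pad made largely of white fat, so whole-gland RNA carries much adipocyte RNA.

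Sprague-Dawley rats of both sexes received 17β-estradiol, the main ovarian estrogen, from subcutaneous osmotic pumps between postnatal day 21 and postnatal day 33. Females and males at 0, 0.1, 1 and 10 µg/kg/day made 8 groups of 3 arrays, 24 arrays in all, and the controls carried pumps at a dose of 0, whose contents the labels do not describe. Each array measured total RNA of frozen gland pairs, with epithelium, fat and other tissue together. The labels do not say that the 3 arrays of a group came from separate animals, so the tests rest on the spread between arrays, which may be partly technical.

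Each deposited value is a signed log value, treated here as log2. The values of a probe set appear to be relative to a reference of their own in each sex, which is not the median of its 12 arrays in most probe sets, so a value of 0 marks no level. Neither absolute levels nor level differences between females and males can be read. For the same reason the presence of fat could not be judged from the level of its markers, and the sex labels could not be checked. Differences between doses are given with their standard error (SE) from limma, a linear model of all 24 arrays. A gene was called where the Benjamini-Hochberg adjusted p, taken over the 31042 probe sets, was below 0.05. Each gene is counted through 1 probe set chosen without its values. In whole tissue, fewer fat cells and less of a transcript per fat cell cannot be told apart.

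Transcripts of other tissues set some arrays apart. Averaged over 19 hepatocyte markers, replicate 1 of the female controls stood at 2.22, replicates 2 and 3 of the male controls at 1.27 and 2.29, replicate 7 of the females at 1 µg/kg/day at 0.74 and replicate 7 of the males at that dose at 0.99, with the other 19 arrays between -0.68 and 0.17. In these 5 arrays 17, 12, 16, 6 and 10 of the 19 markers exceeded 1, and in the others none did. Averaged over 25 skeletal muscle markers, replicate 1 of the female controls was lowest, at -2.88, and replicate 4 of the females at 0.1 highest, at 1.74. The difference between the 3′ and 5′ beta-actin probe sets, a sign of RNA quality, was -0.56, -0.06 and -0.28 in males at 0 and -0.02, 0.16 and 0.05 in males at 10. Values spread most widely over all probe sets in that muscle-rich array (SD 0.485) and in replicate 1 of the male controls (SD 0.395).

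Fat storage genes fell at the highest dose in both sexes. In males at 10 µg/kg/day, 25 of the 39 genes fell and none rose, where limma called 11.3% of all genes lower and 8.24% higher. In females at 10, 16 fell and none rose, where limma called 1.28% of all genes lower and 0.964% higher. The median difference over the 39 genes was -0.92 in males and -0.63 in females, beside -0.01 over all genes in both sexes. All 3 arrays at 10 lay below all 3 controls for 34 of the 39 genes in males, where 21.1% of all genes did so, and for 28 in females, where 11.5% did so.

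The lower doses gave fewer calls. In males at 1 µg/kg/day 12 of the 39 genes fell and none rose, where 2.64% of all genes were called lower and 1.79% higher, and the median was -0.68. In females at 1 limma called 0 of the 39, and 0% of all genes, and the median was -0.27. Of the 39, 9 were lower there at an unadjusted p below 0.05, where 2.03% of all genes were. At 0.1 limma called 0 of the 39, and 0% of all genes, in each sex taken alone. At that dose 28 of the 39 were lower at an unadjusted p below 0.05 in females, where 6.49% of all genes were, and 12 in males, where 7.81% were. The medians at 0.1 were -0.60 in females and -0.41 in males. Between females at 10 and females at 1 limma called 0 of the 39, where it called 0.0633% of all genes lower and 0.253% higher. At an unadjusted p below 0.05, 13 of the 39 were lower there, where 4.3% of all genes were, and 4 were higher, where 6.33% were.

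**Figure D1:**
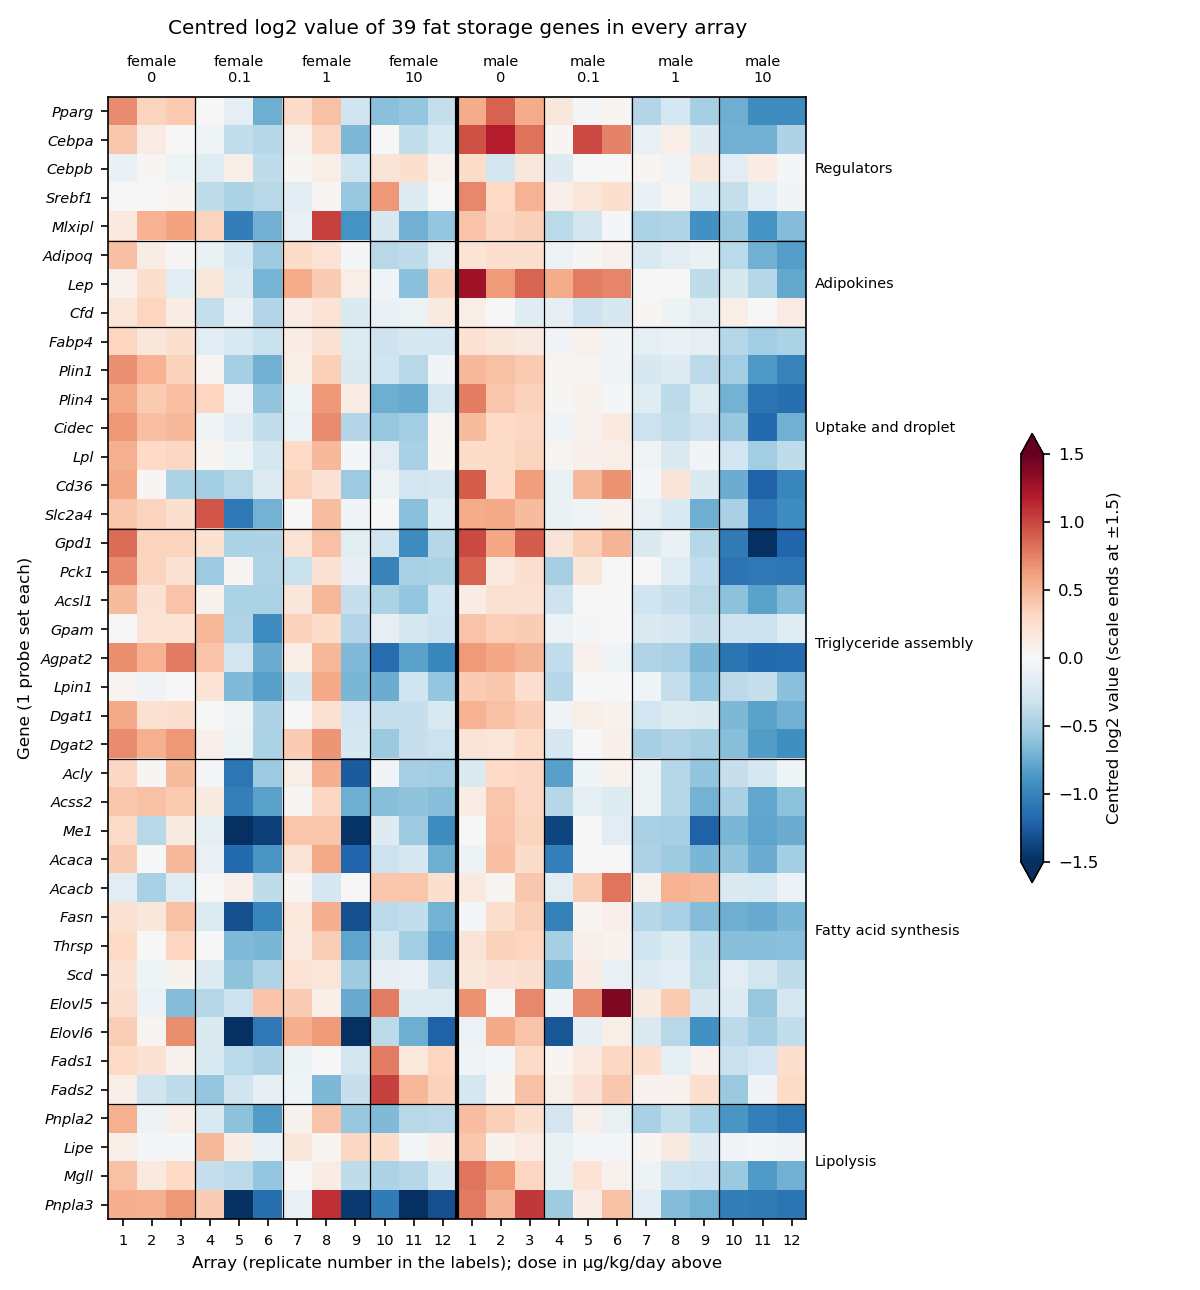
Centred log2 value of each of the 39 genes (rows, grouped by role) in each of the 24 arrays (columns, by sex, dose in µg/kg/day and replicate number), with red above and blue below 0. The male columns turn from red at 0 to blue at 10 in most rows, while among females the columns of replicates 5, 6 and 9 are the darkest blue in the fatty acid synthesis rows.

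The means over the 39 genes show the same order by array. In males they were 0.39, 0.34 and 0.39 at 0, then -0.26, 0.11 and 0.16 at 0.1, then -0.18, -0.21 and -0.37 at 1, and -0.53, -0.66 and -0.58 at 10. The male controls lay above every treated male array and the males at 10 below every other male array. In females they were 0.36, 0.16 and 0.21 at 0, then -0.02, -0.52 and -0.57 at 0.1, then 0.12, 0.35 and -0.51 at 1, and -0.23, -0.40 and -0.32 at 10. The female controls lay above the arrays at 0.1 and at 10, and at 1 replicate 8 lay among them, replicate 7 just below them, and replicate 9 was as low as replicates 5 and 6 at 0.1.

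Most of the 39 genes were also higher in the controls low in hepatocyte markers than in the arrays at 10. The part of hepatocyte transcripts in the differences was not tested. Male replicate 1 at 0, with a hepatocyte mean of -0.10, exceeded all males at 10 in 35 of the 39 genes, where 42.2% of all genes did so. That single array stood apart in other ways. Among males it had the widest spread (SD 0.395), the lowest beta-actin difference (-0.56) and the highest skeletal muscle mean (1.14). Female replicates 2 and 3 at 0, with hepatocyte means of -0.08 and -0.09, both exceeded all females at 10 in 28 of the 39, where 16.5% of all genes did so. Without the 5 arrays with hepatocyte transcripts the median in males at 10 was -0.85, with male replicate 1 as the only male control. In females at 10 the median of that fit was -0.55. It called 1 of the 39 genes there and 90 of all probe sets, where the main fit called 16 and 577. In females the calls thus depended on the arrays with hepatocyte transcripts more than the median did.

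**Figure D2:**
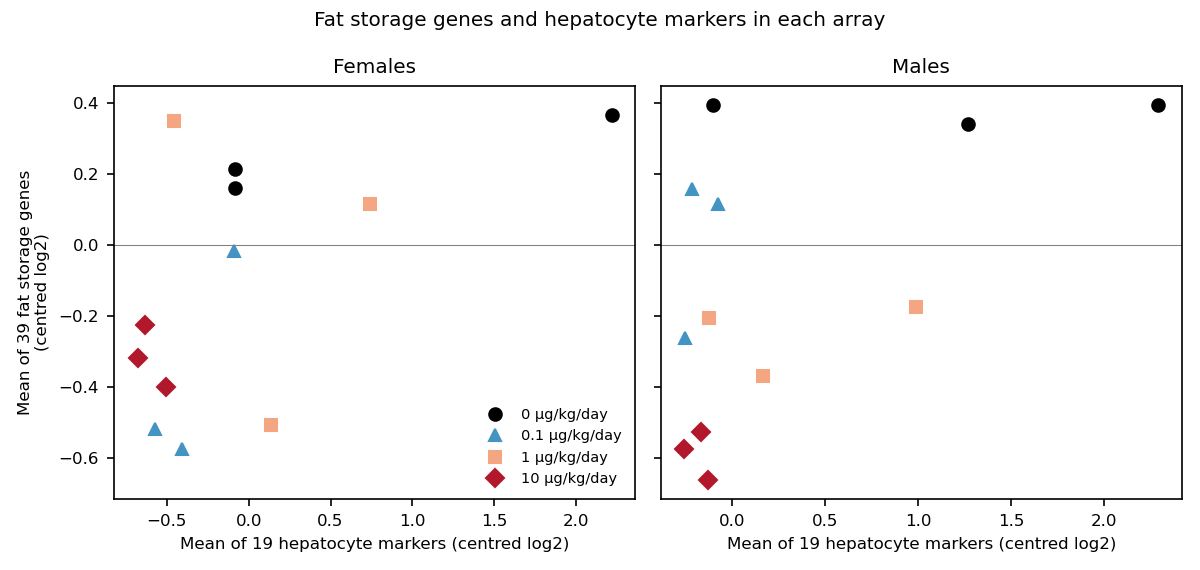
Mean centred log2 value of the 39 fat storage genes (vertical axis) against that of 19 hepatocyte markers (horizontal axis) in each array, females left and males right, with symbols for the dose in µg/kg/day. The 3 male controls lie between 0.34 and 0.39 on the vertical axis while their hepatocyte means run from -0.10 to 2.29.

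Among the regulators, Pparg, the nuclear receptor that drives fat cell formation, fell in both sexes. In males its values were 0.56, 0.88 and 0.55 at 0, then 0.17, -0.02 and 0.03 at 0.1, then -0.44, -0.27 and -0.50 at 1, and -0.74, -0.94 and -0.94 at 10. The male groups followed the dose without overlap. Among females Pparg stood at 0.71, 0.33 and 0.40 at 0, then -0.01, -0.14 and -0.74 at 0.1, then 0.28, 0.44 and -0.30 at 1, and -0.63, -0.58 and -0.36 at 10. Here the group at 1 overlapped the controls. The difference at 10 was -1.54 ± 0.18 in males (limma adjusted p = 2.2e-05, 2.90 times lower on the assumption of log2 values, 95% confidence interval 2.23 to 3.77) and -1.0 ± 0.18 in females (adjusted p = 0.00767). In males at 1 it was -1.06 ± 0.18 (adjusted p = 0.00513).

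Cebpa, the partner of Pparg in the mature fat cell, fell in males. Its male values were 0.95, 1.18 and 0.81 at 0, then 0.03, 0.99 and 0.74 at 0.1, then -0.11, 0.09 and -0.19 at 1, and -0.72, -0.73 and -0.47 at 10. The groups at 0 and 0.1 overlapped and those at 1 and 10 lay below them, replicate 4 at 0.1 apart. Among females Cebpa stood at 0.40, 0.12 and 0.0027 at 0, then -0.06, -0.37 and -0.43 at 0.1, then 0.07, 0.31 and -0.67 at 1, and -0.0027, -0.37 and -0.23 at 10. The female groups spanned a narrower range and, at 1, overlapped the controls. The difference at 10 was -1.62 ± 0.23 in males (limma adjusted p = 0.000108) and -0.38 ± 0.23 in females (adjusted p = 0.536), and all 5 probe sets of Cebpa were called lower in males while 0 of the 5 were in females.

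Of the other regulators, Srebf1, which drives fatty acid synthesis genes, fell in males at 10 by 0.70 on the log2 scale and gave 0.14 ± 0.17 in females. Its second probe set gave -0.15 in males, and the call was lost in the mean of both. Mlxipl, which encodes the glucose-sensing factor ChREBP, fell in males at 10 by 1.06 and gave -0.94 ± 0.35 in females (limma adjusted p = 0.212). The male call of Mlxipl was kept in 5 of 10 alternative settings and in 16 of 24 fits that left out 1 array. Cebpb, an early factor of fat cell formation, gave -0.08 ± 0.14 in males and 0.21 ± 0.14 in females. In all, 4 of the 5 regulators fell in males at 10 and 1 in females, where 11.3% and 1.28% of all genes were called lower.

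**Figure D3:**
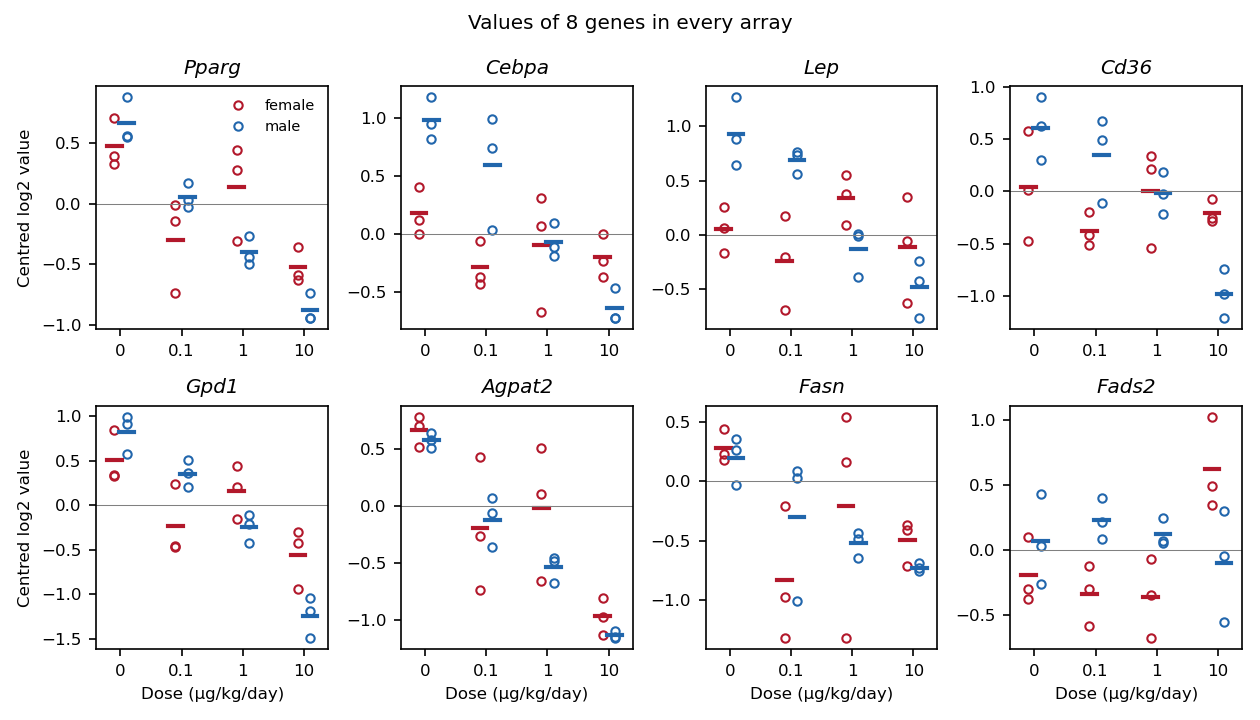
Centred log2 values of 8 genes in every array (circles, females red and males blue; bars are group means) against the dose in µg/kg/day. Pparg and Agpat2 fall in both sexes at 10, Cebpa, Lep and Cd36 fall in males, and Fads2 is highest in females at 10, with values of 1.02, 0.50 and 0.35.

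Since C/EBP factors bind DNA near many fat cell genes, the promoters of the genes were searched for the C/EBP motif TTGCNCAA, on both strands and without a mismatch. RefSeq promoters of the GRCr8 build, from 250 bases before to 50 bases after the gene start, were matched by symbol for 29 of the 39 genes. It stood in 3 of the 29, and in 2.72% of 27457 promoters of that length. All 3 promoters with the match are shown, whatever the calls of their genes. At 10, Plin1 and Cidec were called lower in both sexes, and Lep in males and not in females. The 250 bases before each start are printed 5′ to 3′ on the strand of the gene, with the match in capitals.
Plin1, GRCr8, chr1:143086149-143086398, minus strand: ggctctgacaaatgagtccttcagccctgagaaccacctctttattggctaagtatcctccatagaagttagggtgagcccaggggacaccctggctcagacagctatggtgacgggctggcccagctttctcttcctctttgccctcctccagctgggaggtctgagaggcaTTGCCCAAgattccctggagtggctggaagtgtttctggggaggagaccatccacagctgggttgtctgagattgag
Lep, GRCr8, chr4:58626288-58626537, plus strand: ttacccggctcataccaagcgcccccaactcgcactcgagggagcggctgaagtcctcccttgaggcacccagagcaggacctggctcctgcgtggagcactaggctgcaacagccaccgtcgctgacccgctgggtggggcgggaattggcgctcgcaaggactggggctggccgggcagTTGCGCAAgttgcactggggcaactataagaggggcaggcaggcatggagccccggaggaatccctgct
Cidec, GRCr8, chr4:148137116-148137365, minus strand: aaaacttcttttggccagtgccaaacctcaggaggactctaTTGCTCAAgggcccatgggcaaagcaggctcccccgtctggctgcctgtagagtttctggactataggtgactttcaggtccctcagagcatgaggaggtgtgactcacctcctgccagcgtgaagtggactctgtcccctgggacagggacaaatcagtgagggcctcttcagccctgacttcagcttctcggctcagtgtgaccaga
The match begins 77 bases before the start in Plin1, 69 in Lep and 209 in Cidec. A match of letters is a description and does not show that a factor binds there.

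Other motifs were searched in the same windows on both strands. The direct repeat of PPAR receptors, AGGTCA, 1 free base and AGGTCA again, stood in 0 of the 29 and in 0.0583% of all promoters, and with 1 mismatch allowed in 0 and 0.463%. The estrogen response element, GGTCA, 3 free bases and TGACC, stood in 0 of the 29 and in 0.0255% of all. The sterol response element TCACNCCAC stood in 0 and 1.13%, and the E-box CACGTG, in Elovl5 and Mgll, in 2 of the 29 and 6.65%. The core CCAAT stood in 16 of the 29 and in 37.7% of all, and TATAAA in 4 and 14.3%. No match says only that these letters are not in this window.

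The adipokine genes did not move together. Adipoq, which encodes the circulating protein adiponectin, had male values of 0.20, 0.25 and 0.24 at 0, then -0.09, 0.02 and 0.07 at 0.1, then -0.23, -0.17 and -0.10 at 1, and -0.40, -0.72 and -0.82 at 10. Each male group lay below the one at the next lower dose, without overlap. Female arrays gave 0.45, 0.11 and 0.02 at 0, then -0.11, -0.27 and -0.55 at 0.1, then 0.28, 0.21 and -0.02 at 1, and -0.41, -0.38 and -0.17 at 10. The females at 0.1 and 10 lay below the controls, and those at 1 overlapped them. Adipoq fell by 0.88 in males (limma adjusted p = 0.000147) and by 0.52 in females (adjusted p = 0.0415) on the log2 scale.

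Lep encodes leptin, the hormone that reports fat stores to the brain. Male values were 1.27, 0.64 and 0.88 at 0, then 0.56, 0.77 and 0.74 at 0.1, then -0.01, 0.01 and -0.39 at 1, and -0.24, -0.42 and -0.76 at 10. In males the arrays at 1 and 10 lay below those at 0 and 0.1. Female values were 0.06, 0.26 and -0.16 at 0, then 0.17, -0.20 and -0.69 at 0.1, then 0.55, 0.38 and 0.09 at 1, and -0.06, -0.63 and 0.35 at 10. Every female dose group overlapped the controls.

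For Lep the difference was -1.06 ± 0.24 in males at 1 (limma adjusted p = 0.0198) and -1.40 ± 0.24 in males at 10 (adjusted p = 0.000527), a level 2.65 times lower with a 95% confidence interval of 1.88 to 3.73. In females at 10 it was -0.16 ± 0.24 (adjusted p = 0.845). The call in males at 10 was lost with the beta-actin difference as a covariate, where the value was -0.877 (limma adjusted p = 0.105). Cfd, which encodes the complement protease adipsin, gave 0.09 ± 0.11 in males and -0.22 ± 0.11 in females at 10 and was not called in either.

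All 7 genes of uptake and the droplet fell in males at 10, and 5 of them in females, where 11.3% and 1.28% of all genes were called lower. Fabp4, the fatty acid binding protein of fat cells, had male values of 0.22, 0.17 and 0.13 at 0, then -0.05, 0.06 and -0.05 at 0.1, then -0.15, -0.10 and -0.14 at 1, and -0.43, -0.52 and -0.48 at 10. Female arrays gave 0.32, 0.17 and 0.24 at 0, then -0.16, -0.23 and -0.33 at 0.1, then 0.11, 0.22 and -0.20 at 1, and -0.31, -0.24 and -0.26 at 10. The arrays lay close together within most groups, and the SE of 0.08 was the smallest of the 39 genes. The difference at 10 was -0.65 in males (limma adjusted p = 4.78e-05) and -0.51 in females (adjusted p = 0.00363).

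Plin1 encodes perilipin, which coats the droplet and gates its lipases. Its male values were 0.49, 0.44 and 0.39 at 0, then 0.04, 0.04 and -0.04 at 0.1, then -0.24, -0.19 and -0.39 at 1, and -0.53, -0.86 and -1.0 at 10. The 4 male groups did not overlap. In females they were 0.69, 0.52 and 0.35 at 0, then 0.03, -0.49 and -0.72 at 0.1, then 0.09, 0.36 and -0.22 at 1, and -0.30, -0.42 and -0.04 at 10. The female arrays at 0.1 and 10 lay below the controls and overlapped each other. It fell at 10 by 1.24 in males (limma adjusted p = 7.98e-05) and by 0.77 in females (adjusted p = 0.0204) on the log2 scale.

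Cd36, a fatty acid translocase of the cell surface, fell in males. Its male values were 0.90, 0.30 and 0.63 at 0, then -0.11, 0.49 and 0.67 at 0.1, then -0.02, 0.19 and -0.21 at 1, and -0.74, -1.21 and -0.98 at 10. The males at 10 lay below every other male array. Female arrays stood at 0.57, 0.02 and -0.47 at 0, then -0.51, -0.42 and -0.20 at 0.1, then 0.34, 0.21 and -0.54 at 1, and -0.07, -0.28 and -0.25 at 10. The females at 10 fell inside the range of the controls, and the other doses overlapped it. At 10 the difference was -1.59 ± 0.25 in males (limma adjusted p = 0.000369) and -0.24 ± 0.25 in females (adjusted p = 0.777). The female value changed sign, to 0.0254, without replicate 1 at 0.

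Of the other genes of this group, the droplet coat gene Plin4 fell by 1.49 in males at 10 and by 1.06 in females. Cidec, whose product fuses droplets, fell by 1.18 and 0.88, and Lpl, the lipase that frees fatty acids from blood lipoproteins, by 0.69 and 0.59. Slc2a4, the insulin-responsive glucose transporter also found in muscle, fell in males by 1.36 and gave -0.59 ± 0.33 in females. Its highest female value, 0.95, was in female replicate 4 at 0.1, the array with the highest skeletal muscle mean. With the hepatocyte and skeletal muscle means as covariates the male difference was -0.985 and no longer called (limma adjusted p = 0.116). The call was also lost without the 5 arrays with hepatocyte transcripts (-1.39, adjusted p = 0.107) and with the beta-actin covariate (-0.701, adjusted p = 0.43).

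In triglyceride assembly 7 of the 8 genes fell in males at 10 and 6 in females, where 11.3% and 1.28% of all genes were called lower. Gpd1, which makes the glycerol phosphate backbone, had male values of 0.99, 0.58 and 0.91 at 0, then 0.20, 0.36 and 0.50 at 0.1, then -0.22, -0.11 and -0.42 at 1, and -1.04, -1.49 and -1.19 at 10. The 4 male groups were separate and ordered by dose. In females they were 0.84, 0.34 and 0.33 at 0, then 0.23, -0.47 and -0.46 at 0.1, then 0.20, 0.44 and -0.16 at 1, and -0.30, -0.95 and -0.43 at 10. The females at 10 lay below the controls and overlapped those at 0.1.

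Gpd1 had the largest difference of the 39 genes in males at 10, at -2.07 ± 0.21 (limma adjusted p = 6.68e-06, 4.19 times lower, 95% confidence interval 3.09 to 5.70). In females at 10 it gave -1.06 ± 0.21 (adjusted p = 0.0131). Between males at 10 and males at 1 Gpd1 differed by -0.99 ± 0.21 (limma adjusted p = 0.0461). It was the only one of the 39 called in that comparison, where 0.232% of all genes were called lower and 0.225% higher. Of the 24 fits that left out 1 array 15 lost that call, and of 10 other settings 5 did.

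Agpat2, an acyltransferase of the second acylation step, fell in both sexes. In males its values were 0.64, 0.58 and 0.51 at 0, then -0.36, 0.07 and -0.07 at 0.1, then -0.46, -0.48 and -0.67 at 1, and -1.10, -1.16 and -1.15 at 10. In females they were 0.70, 0.52 and 0.78 at 0, then 0.43, -0.27 and -0.74 at 0.1, then 0.10, 0.50 and -0.66 at 1, and -1.14, -0.81 and -0.97 at 10. Both groups at 10 lay below every other array of their sex. The difference was -1.71 ± 0.24 in males (limma adjusted p = 0.000118) and -1.64 ± 0.24 in females (adjusted p = 0.00168), and the male minus female difference was -0.07 ± 0.34, a male fall 1.05 times the female one with a 95% confidence interval of 0.641 to 1.73. Agpat2 was the only gene of the 16 called in females at 10 that stayed called under 10 alternative settings and with any 1 array left out.

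Pck1, whose product feeds glycerol synthesis in fat, fell by 1.51 in males at 10 and by 1.07 in females. Acsl1, which activates fatty acids, fell by 0.88 and 0.83. Dgat1 and Dgat2 catalyse the last step of triglyceride synthesis. Dgat1 fell by 1.18 in males and 0.66 in females, and Dgat2 by 1.02 and 1.04. The phosphatidate phosphatase gene Lpin1 fell by 0.81 in males and gave -0.54 ± 0.26 in females, while Gpam, the mitochondrial acyltransferase of the first step, was not called in either sex (-0.65 ± 0.24 and -0.37 ± 0.24).

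Few fatty acid synthesis genes were called. In males at 10, 2 of the 12 fell, a share near the 11.3% of all genes called lower there, and in females 1 did, where 1.28% of all genes were called lower. The median difference was -0.77 in males and -0.59 in females. Their SE had a median of 0.296 in this fit, where the regulators had 0.181, triglyceride assembly genes 0.214 and all genes 0.116. The genes called were Acss2, which makes acetyl-CoA from acetate, in both sexes, and Thrsp, which encodes a lipogenic nuclear protein, in males. Acaca, which makes malonyl-CoA, was not called in males by the probe set counted here, at -0.83. Its other probe set gave -1.41 and was called lower.

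Acss2 had female values of 0.42, 0.44 and 0.39 at 0, then 0.13, -1.03 and -0.81 at 0.1, then 0.01, 0.31 and -0.73 at 1, and -0.64, -0.61 and -0.64 at 10. Male arrays gave 0.11, 0.41 and 0.31 at 0, then -0.42, -0.14 and -0.20 at 0.1, then -0.07, -0.43 and -0.71 at 1, and -0.49, -0.78 and -0.62 at 10. All treated arrays lay below the controls of their sex, and female replicates 5, 6 and 9 were lower than the females at 10. Acss2 differed at 10 by -1.04 ± 0.25 in females (limma adjusted p = 0.0336) and -0.90 ± 0.25 in males (adjusted p = 0.0165).

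Thrsp stood at 0.20, 0.34 and 0.32 in males at 0, then at -0.50, 0.08 and 0.05 at 0.1, at -0.30, -0.20 and -0.38 at 1, and at -0.64, -0.63 and -0.62 at 10. Males at 10 were below every other male array. In females Thrsp stood at 0.30, -0.01 and 0.32 at 0, at 0.01, -0.66 and -0.69 at 0.1, at 0.15, 0.36 and -0.79 at 1, and at -0.27, -0.53 and -0.79 at 10. The females at 10 lay below the controls and overlapped the females at 0.1 and 1. Thrsp differed at 10 by -0.92 ± 0.23 in males (limma adjusted p = 0.0111) and -0.73 ± 0.23 in females (adjusted p = 0.125).

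A few arrays lay low within their groups. Fasn, which encodes fatty acid synthase, had female values of 0.23, 0.17 and 0.44 at 0, then -0.21, -1.32 and -0.98 at 0.1, then 0.16, 0.54 and -1.32 at 1, and -0.41, -0.37 and -0.71 at 10. In females replicates 5 and 6 at 0.1 and replicate 9 at 1 were lower than every array at 10. In males they were -0.03, 0.27 and 0.36 at 0, then -1.01, 0.03 and 0.08 at 0.1, then -0.43, -0.48 and -0.65 at 1, and -0.73, -0.76 and -0.69 at 10. Male replicate 4 at 0.1 was the lowest male array. Fasn differed at 10 by -0.92 ± 0.36 in males (limma adjusted p = 0.081) and -0.78 ± 0.36 in females (adjusted p = 0.355).

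Elovl6, an elongase of saturated fatty acids, Me1, the malic enzyme that supplies reducing power, Acly, which makes cytosolic acetyl-CoA, and Acaca, which makes malonyl-CoA, had the same low arrays. These 4 genes were picked after their values were seen. For Elovl6 the female values at 1 were 0.55, 0.64 and -1.93, and those at 0.1 were -0.21, -1.93 and -1.08. For Me1 they were 0.41, 0.42 and -1.47 at 1 and -0.14, -1.68 and -1.40 at 0.1. Male replicate 4 at 0.1 stood at -1.28 for Elovl6, -1.38 for Me1, -0.81 for Acly and -1.02 for Acaca, while the other males at 0.1 lay between -0.17 and 0.08 for these genes. Pnpla3, counted under lipolysis, shared the low female arrays, with values of -1.48 and -1.13 in replicates 5 and 6 and -1.43 in replicate 9.

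Some synthesis genes did not follow. Acacb, the acetyl-CoA carboxylase of the mitochondrial surface, had female values of -0.17, -0.48 and -0.18 at 0, then -0.01, 0.07 and -0.38 at 0.1, then 0.03, -0.25 and 0.01 at 1, and 0.40, 0.42 and 0.24 at 10. The females at 10 lay above every other female array. In males Acacb stood at 0.15, 0.04 and 0.40 at 0, at -0.17, 0.37 and 0.80 at 0.1, at 0.06, 0.52 and 0.50 at 1, and at -0.21, -0.22 and -0.08 at 10. The males at 10 lay below the controls. At 10 Acacb differed by 0.63 ± 0.19 in females (limma adjusted p = 0.0949) and -0.37 ± 0.19 in males (adjusted p = 0.177), and neither was called.

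Fads2, a desaturase of polyunsaturated fatty acids, also lay higher in females at 10, with values of 1.02, 0.50 and 0.35 where the controls gave 0.10, -0.30 and -0.38. It was picked after its values were seen. The difference was 0.82 ± 0.22 (limma adjusted p = 0.0691) against 0 and 0.99 ± 0.22 (adjusted p = 0.075) against 1, and in males at 10 it was -0.17 ± 0.22. The desaturase gene Fads1 gave 0.22 ± 0.16 in females and -0.19 ± 0.16 in males at 10. The elongase gene Elovl5 gave 0.28 ± 0.37 and -0.81 ± 0.37, and the stearoyl-CoA desaturase gene Scd -0.26 ± 0.18 and -0.49 ± 0.18.

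**Figure D4:**
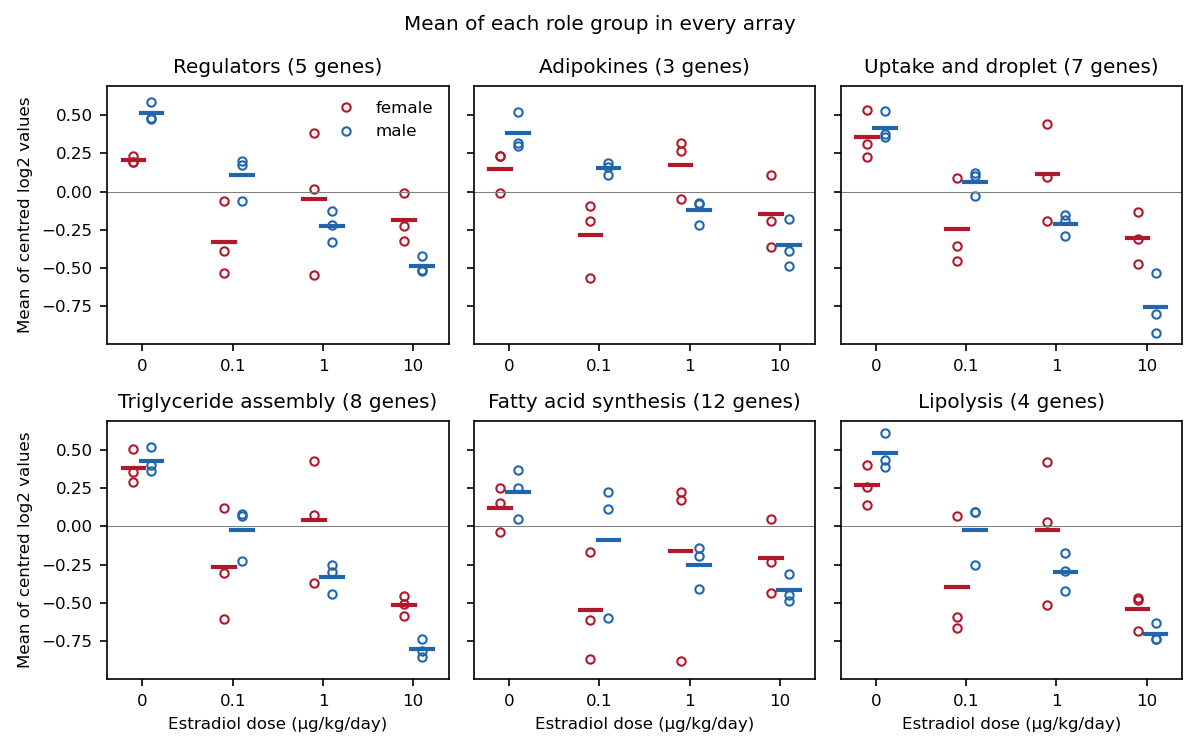
Mean centred log2 value of each role group in every array (circles, females red and males blue; bars are group means) against the dose in µg/kg/day. In males every role group has its highest mean at 0 and its lowest at 10, while among female arrays the fatty acid synthesis means are lowest in replicates 5 and 6 at 0.1 and replicate 9 at 1.

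Of the 4 lipolysis genes 3 fell in males at 10 and 2 in females, where 11.3% and 1.28% of all genes were called lower. Mgll, the lipase that splits monoglycerides, had male values of 0.80, 0.64 and 0.32 at 0, then -0.10, 0.21 and 0.07 at 0.1, then -0.08, -0.30 and -0.31 at 1, and -0.55, -0.85 and -0.72 at 10. In females they were 0.44, 0.15 and 0.30 at 0, then -0.35, -0.39 and -0.59 at 0.1, then -0.01, 0.12 and -0.38 at 1, and -0.48, -0.43 and -0.22 at 10. Every male treated array lay below the male controls, and the same held among females. The difference was -1.30 ± 0.14 in males at 10 (limma adjusted p = 9.88e-06), -0.82 ± 0.14 in males at 1 (adjusted p = 0.00505) and -0.67 ± 0.14 in females at 10 (adjusted p = 0.0162).

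Pnpla2 encodes adipose triglyceride lipase, which opens the breakdown of stored fat. Its male values were 0.46, 0.36 and 0.24 at 0, then -0.29, 0.07 and -0.11 at 0.1, then -0.48, -0.36 and -0.47 at 1, and -0.87, -1.02 and -1.08 at 10. The male groups were separate. Female arrays gave 0.53, -0.08 and 0.10 at 0, then -0.23, -0.62 and -0.84 at 0.1, then 0.05, 0.43 and -0.57 at 1, and -0.66, -0.42 and -0.40 at 10. The females at 10 lay below the controls, while those at 1 overlapped them. The difference at 10 was -1.34 ± 0.20 in males (limma adjusted p = 0.000174) and -0.68 ± 0.20 in females (adjusted p = 0.0918). Pnpla3, a related lipid droplet protein, fell in both sexes, by 1.85 in males and by 1.99 in females. The female call was kept in 6 of 10 alternative settings and in 18 of 24 fits that left out 1 array. The male call was kept in 6 of 10 settings and in all 24 such fits.

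The probe sets of Lipe, which encodes hormone-sensitive lipase, disagreed. The probe set that stands for the gene, 1382465_at, had male values of 0.41, 0.05 and 0.12 at 0, then -0.10, -0.02 and -0.02 at 0.1, then 0.02, 0.14 and -0.19 at 1, and -0.05, -0.03 and -0.06 at 10. In females it stood at 0.10, -0.03 and -0.02 at 0, at 0.48, 0.11 and -0.10 at 0.1, at 0.17, 0.05 and 0.31 at 1, and at 0.28, -0.03 and 0.08 at 10. The males at 10 lay below their controls by a small margin, while the females at 10 overlapped theirs. Its difference was -0.24 ± 0.13 in males and 0.09 ± 0.13 in females, and neither was called. The other, 1387132_at, gave male values of 0.75, 0.65 and 0.49 at 0, then -0.04, 0.35 and 0.26 at 0.1, then -0.35, -0.06 and -0.04 at 1, and -0.67, -0.89 and -0.81 at 10. In females it stood at 0.49, 0.24 and 0.28 at 0, at -0.35, -0.24 and -0.59 at 0.1, at 0.03, 0.46 and -0.30 at 1, and at -0.57, -0.29 and -0.44 at 10. The groups at 10 and 0 did not overlap in either sex, with differences of -1.42 ± 0.15 (limma adjusted p = 1.14e-05) and -0.77 ± 0.15 (adjusted p = 0.0143). Over all probe sets, 42 of the 65 were called lower in males at 10, where 9.64% of all probe sets were, and 24 in females, where 1.05% were.

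**Figure D5:**
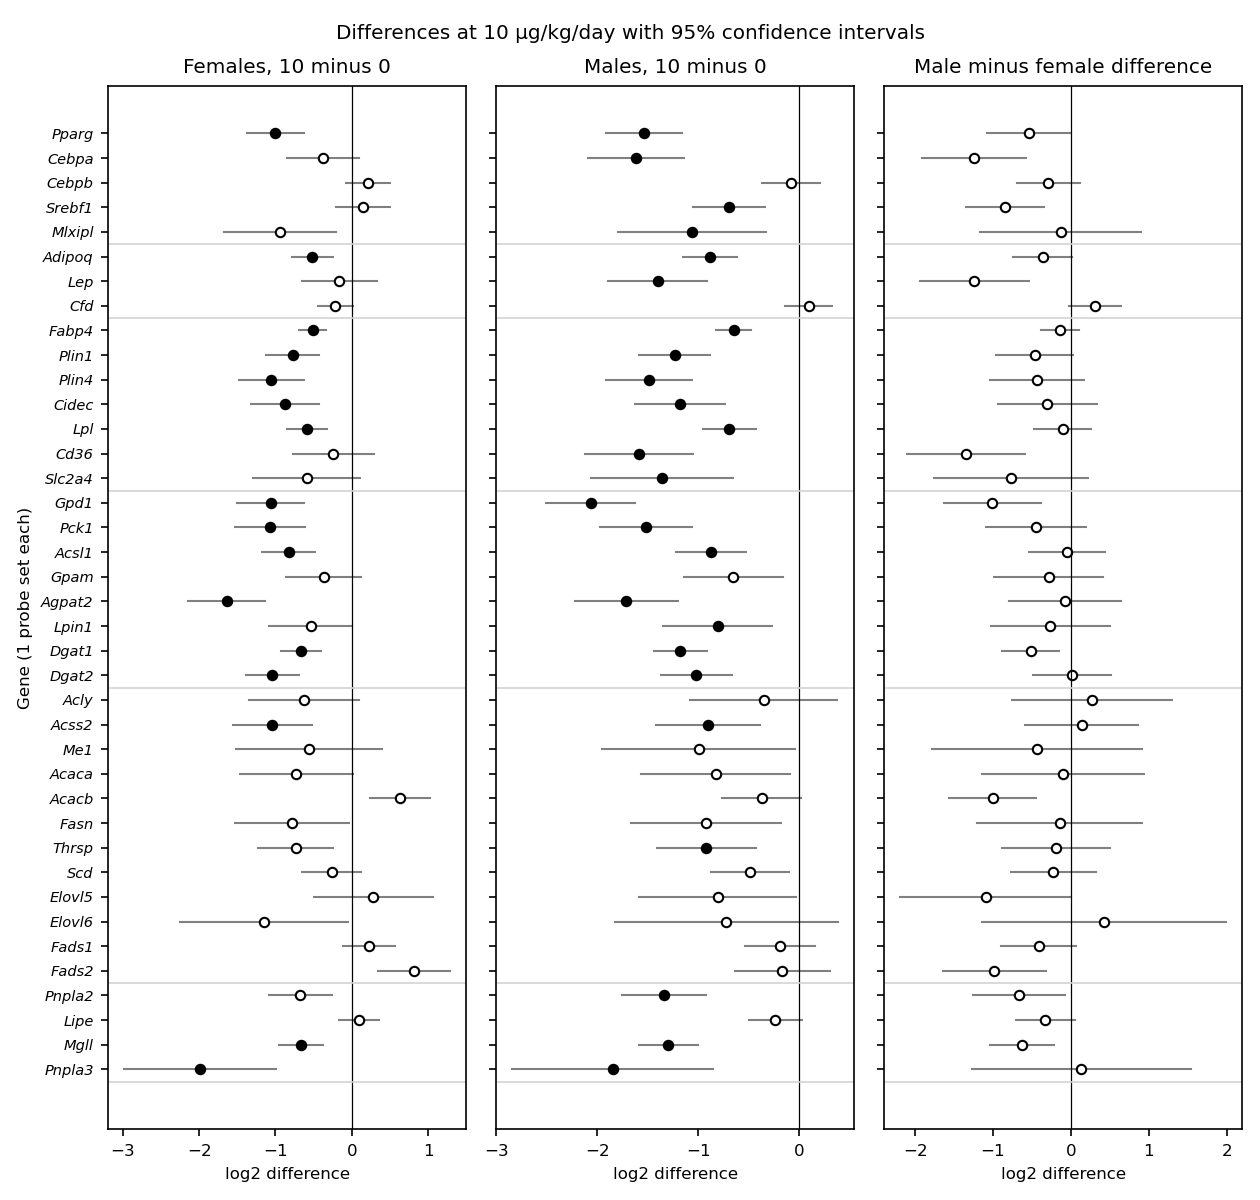
Log2 difference between 10 and 0 µg/kg/day with 95% confidence interval for each of the 39 genes (rows, grouped by role), in females (left), in males (centre) and as the male minus the female difference (right), with filled circles where limma's adjusted p was below 0.05. Filled circles number 16 in females, 25 in males and 0 at right.

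The order of the group means by dose differed between the sexes. In males 29 of the 39 genes had means that fell at every step from 0 through 0.1 and 1 to 10, where 15.6% of all genes did so. In females 0 of the 39 did so, where 5.2% of all genes did. The group at 0 had the highest mean in 34 of the 39 genes in males, where 38.6% of all genes did so, and in 31 in females, where 29.3% did. In females the lowest mean stood at 0.1 for 18 genes, where 24.9% of all genes did, and at 10 for 17, where 30.2% did. In males it stood at 10 for 33, where 32.7% did, and at 0.1 for 3, where 18% did. These counts describe means and were not tested, and the skeletal muscle and hepatocyte means above also differed between the groups.

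All 16 genes called in females at 10 were among the 25 called in males, which is 100% of the female and 64% of the male list. Over all genes, 150 were called lower in both, 82.4% of the 182 in females and 9.35% of the 1604 in males. The female and male differences have no array in common, but each gene's SE came from the same fit to the arrays of both sexes. A gene with a small SE is thus called more easily in both, and the lists are not independent. The female calls of Adipoq and Cidec were lost in some fits that left out a male array, while the other female calls of the 16 were not. The 9 called in males and not in females were Cebpa, Srebf1, Mlxipl, Lep, Cd36, Slc2a4, Lpin1, Thrsp and Pnpla2.

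A call in one sex alone does not show that the sexes differ, so the difference itself was tested as the male change from 0 minus the female change. At 10 limma called 0 of the 39 genes, where it called 0.689% of all genes lower and 0.422% higher, and 11 had an unadjusted p below 0.05, all lower in males, where 9.3% of all genes did so. The smallest adjusted p was 0.0622, for Cebpa, at -1.24 ± 0.32. For Cd36 it was -1.34 ± 0.36 (limma adjusted p = 0.0688), for Lep -1.24 ± 0.33 (adjusted p = 0.0689), for Acacb -1.0 ± 0.26 (adjusted p = 0.0662), for Srebf1 -0.84 ± 0.24 (adjusted p = 0.0819) and for Gpd1 -1.01 ± 0.30 (adjusted p = 0.0927). At the other end, Dgat2 gave 0.02 ± 0.24 and Fasn -0.14 ± 0.50. At 0.1 limma called 0 of the 39, and 0% of all genes. At an unadjusted p below 0.05, 3 were higher, where 3.49% of all genes were, and 1 was lower, where 3.47% were. At 1 limma called 0 of the 39, where it called 0% of all genes lower and 0.0352% higher, and 5 were lower at an unadjusted p below 0.05, where 4.81% of all genes were.

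The lowest dose was also compared with 0 over both sexes at once, as the mean of the female and the male difference. In that fit 13 of the 39 genes fell and none rose, where 1.5% of all genes were called lower and 0.106% higher, and the median was -0.52. They were Pparg, Adipoq, Cfd, Fabp4, Plin1, Pck1, Acsl1, Agpat2, Dgat1, Dgat2, Acss2, Pnpla2 and Mgll. Mgll had the smallest adjusted p, at -0.63 ± 0.10 (limma adjusted p = 0.00762), followed by Fabp4 at -0.33 ± 0.06 and Plin1 at -0.67 ± 0.12 (adjusted p = 0.0143 each). This count was 0 without the 5 arrays with hepatocyte transcripts, 1 without female replicate 1 at 0 and 26 without female replicate 4 at 0.1.

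Single arrays moved the other counts too. Calls over all genes with 1 array left out are not given here, so these counts do not set the fat storage genes apart. In females at 10 the 16 became 3 without replicate 1 of the controls, 5 without replicate 10 and 6 without replicate 11. Fabp4, Agpat2 and Dgat2 were called whichever array was left out. In males at 1 the 12 became 3 without control replicate 1 or treated replicate 9, 4 without treated replicate 7, 5 without control replicate 2, and 1 without the 5 arrays with hepatocyte transcripts. Pparg, Dgat1 and Mgll were called there whichever array was left out. In males at 10 the 25 ranged from 22 to 29, and became 13 with the beta-actin difference as a covariate. With that covariate the calls over all probe sets in males at 10 also fell, from 5419 to 738. In females at 0.1 the count of 0 became 13 without replicate 4 of that dose, the array with the widest spread, and 10 without replicate 9 of the next dose.

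In males at 10, 13 of the 25 genes stayed called under all 10 alternative settings and with any 1 array left out. These were Pparg, Cebpa, Adipoq, Fabp4, Plin1, Plin4, Gpd1, Pck1, Agpat2, Dgat1, Dgat2, Pnpla2 and Mgll. They span the regulators, the adipokines, the droplet, triglyceride assembly and lipolysis. Of the fatty acid synthesis genes only Acss2 and Thrsp had been called in males at 10, and neither stayed called throughout. How many calls over all genes stay under the same settings was not counted.

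Further genes of the same pathways, from lists written with earlier results of these data known, moved in part. Their counts stand beside 11.3% of all genes called lower and 8.24% called higher in males at 10, and 1.28% and 0.964% in females. Of 28 other glycerolipid and droplet genes 13 fell and 1 rose in males at 10, and 3 fell in females. Gpihbp1, which anchors lipoprotein lipase to capillaries, fell by 1.52 in males and gave -0.48 ± 0.13 in females (limma adjusted p = 0.0665). Aqp7, a glycerol channel of fat cells, fell by 1.70 and 0.80, and Abhd5, the activator of adipose triglyceride lipase, fell by 1.70 in males and gave -0.15 ± 0.19 in females.

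Of 16 other fatty acid synthesis genes 8 fell and 2 rose in males at 10, and 1 fell and 1 rose in females. Fads3, a desaturase relative, fell by 1.22 in males and by 0.79 in females. Olah, the thioesterase that ends synthesis at medium chain length in the lactating gland, rose by 1.5 in males and by 2.21 in females. Of 26 other regulators and insulin signalling genes 12 fell and 0 rose in males at 10, and 3 fell and 1 rose in females. Adrb3, the beta-3 adrenergic receptor of fat cells, fell by 1.99 and 1.84, Pde3b, which lowers cyclic AMP after insulin, by 1.10 and 0.89, while Cebpd, an early adipogenic factor, rose by 0.86 in females.

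Markers of other cells were counted in the same comparisons, against the same shares of all genes. The male counts of macrophage and brown fat markers were near those shares. Of 8 preadipocyte markers 2 fell and 1 rose in males at 10, and 2 fell in females, where 11.3% and 1.28% of all genes were called lower. Their array means lay between -0.25 and 0.20 in males at 0 and 10. Of 18 luminal epithelial markers 5 rose in males and 3 in females, and none fell. Their means were -1.07, -0.72 and -0.11 in males at 0 and 0.06, 0.42 and 0.36 in males at 10. Of 10 endothelial markers 7 fell in males and 1 in females, with means of 0.29, 0.30 and 0.26 at 0 and -0.12, -0.23 and -0.14 at 10 in males. Of 9 keratinocyte markers 7 rose in males, while in females limma called 0 and 1 was lower at an unadjusted p below 0.05, where 8.11% of all genes were, and of 11 macrophage markers 1 fell in males and 1 rose in females. Of 9 basal epithelial markers 1 fell and 4 rose in males, and of 10 brown fat markers 1 fell and 1 rose. Of 5 B cell markers limma called 0 in either sex, but in males all 5 were higher at an unadjusted p below 0.05, where 16.9% of all genes were, with a median difference of 2.05, against a median of -0.86 and 0 such markers in females, where 6.77% of all genes were. Of 10 T cell markers it called 0 as well, with 3 higher at an unadjusted p below 0.05 and a median of 1.53 in males, and with 0 and a median of -0.78 in females. Their part in the fat storage results was not tested.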

How the data were processed

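RNA of 24 arrays was labelled with biotin and hybridised to Affymetrix arrays, per the labels' protocols. GCOS, the Affymetrix operating software, is named per the submitters' processing notes. The authors deposited signed log values, taken here as log2 values. The sources used here do not give the log base, the summarization, the normalization or the centring, so folds depend on the base. In 45.3% of probe sets in females and 41.9% in males, the values closest to 0 on each side were equal and opposite within 2e-06. The median of the 12 arrays of a sex was 0, within that tolerance, in 14.8% and 12.9%. Precision is limited by how many arrays there are.

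Of 31099 probe sets 57 controls were left out. The platform annotation gave 1 gene for 20826, several for 436 and none for 9780. Groups were taken from the titles. limma 3.58.1 in R 4.3.3 fitted 8 group means (16 residual degrees of freedom, 2.95 prior), and the script was tested on simulated data. The alternatives were quantile normalization, a filter on the SD, only the groups compared, array weights, array exclusions, tissue and beta-actin covariates, gene summaries, single arrays left out and a replicate block. The members, lists and tests were chosen with earlier results of these data known. A gene was represented by its _at probe set, before _a_at, _s_at and _x_at, and then by the lowest number. Values in every array are given for up to 3 genes per role with the smallest p in males at 10, females at 10 and the interaction at 10, and always for Pparg, Adipoq, Lep, Fabp4, Plin1, Fasn, Lipe and Pnpla2. Of other lists, up to 3 genes with the smallest p in each sex at 10 are named.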

Additional observations from a re-analysis of the deposited data

Results flagged for a closer look

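In 4 genes of the wider pathway lists (of 28, 16 and 26 genes) the response at 10 µg/kg/day differed between the sexes by limma's test of the difference, with the male minus female difference below 0 in all 4, where it called 0.689% of all genes lower and 0.422% higher. For Abhd5, the activator of adipose triglyceride lipase, the male minus female difference was -1.55 ± 0.27 (limma adjusted p = 0.012). Its values were 0.74, 0.40 and 0.43 in males at 0 and -1.22, -1.28 and -1.02 in males at 10, while in females they were 0.44, 0.13 and -0.29 at 0 and -0.04, 0.04 and -0.16 at 10. For Gpihbp1, the capillary anchor of lipoprotein lipase, it was -1.05 ± 0.18 (limma adjusted p = 0.0128). Both kept the call whichever array was left out, and lost it under 2 settings. With quantile normalization the differences were -1.59 for Abhd5 and -1.0 for Gpihbp1 (limma adjusted p = 0.0596 and 0.0729). With the beta-actin covariate they were -1.38 and -0.797 (adjusted p = 0.21 and 0.26).

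For Akt2, a kinase of insulin signalling, the difference was -0.87 ± 0.19 (limma adjusted p = 0.0302), with -1.14 in males and -0.27 in females, and it kept the call in 6 of 11 settings and 15 of 24 fits that left out 1 array. For Adipor1, an adiponectin receptor, it was -0.39 ± 0.08 (limma adjusted p = 0.0272), from -0.24 in males and 0.15 in females, with the call kept in 5 of 10 settings and 17 of 24 such fits.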

How the results depend on the processing

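Counts of called genes moved with single arrays and with other settings. Leaving out 1 array gave 0 to 13 in females at 0.1, 3 to 18 in females at 10, 0 to 6 in females at 10 against 1, 3 to 17 in males at 1, 22 to 29 in males at 10, 0 to 2 in males at 10 against 1, 0 to 5 in the sex difference at 10 and 1 to 26 at 0.1 over both sexes, and 0 in females at 1, in males at 0.1 and in the sex differences at 0.1 and 1. Without the 5 arrays with hepatocyte transcripts the counts were 1 in females at 10 and 0 in males at 10 against 1. Over all probe sets that fit called 90 and 107, in the same order. With 1 male control left, the medians were -0.72 in males at 1, -0.46 in the sex difference at 10 and -0.48 at 0.1 over both sexes. Without the 2 widest arrays the counts were 11 in females at 0.1, 3 in females and 2 in males at 10 against 1. The probe sets called there numbered 162, 228 and 206. Array weights gave 29 in females at 0.1, 4 in females and 10 in males at 10 against 1, 24 in males at 1, 13 in the sex difference at 10 and 29 at 0.1 over both sexes. They raised the calls over all probe sets as well, to 1738, 166, 845, 2375, 3491 and 3476 in the same order. Fitting only the groups compared gave 7 in females at 10, 23 in males at 1, 6 in males at 10 against 1, 2 in the sex difference at 10 and 2 at 0.1 over both sexes. The probe sets called in these fits numbered 127, 885, 215, 514 and 41. Hepatocyte and muscle covariates gave 1 in females and 0 in males at 10 against 1, 4 in the sex difference at 10 and 0 at 0.1 over both sexes. Over all probe sets they gave 129, 149, 519 and 1. The beta-actin covariate gave 2 in males at 0.1, 13 in males at 10 and 0 in males at 10 against 1. With it 1204, 738 and 14 of all probe sets were called there. Quantile normalization gave 1 in females at 0.1, 1 in females (a rise) and 0 in males at 10 against 1, and 5 at 0.1 over both sexes. Its calls over all probe sets were 12, 169, 47 and 166. Gene means gave 3 in females at 0.1 and 0 in males at 10 against 1, with 27 and 63 of all genes called. Only probe sets with the larger SD gave 1 in the sex difference at 10, with 381 of those probe sets called. The cause was not tested.

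Of 3351 values of single genes under alternatives 3336 kept their sign, but many of them could not change. A difference of group means stays as it was when the array left out belongs to another group. The same holds when only the groups compared are fitted. The tally therefore does not measure how stable the signs are. With single arrays left out, Lep in females at 10 ranged from -0.396 to 0.0937 (without replicate 11) and Cd36 from -0.497 to 0.0254 (without replicate 1 at 0, likewise without the 5 arrays), and Lipe to -0.338 as a gene mean and -0.768 by its more variable probe set. Lipe in males at 10 turned to 0.123 and its sex difference to 0.0974 with the beta-actin covariate. The sex difference of Agpat2 turned to 0.16 with quantile normalization, 0.213 with beta-actin, and ranged from -0.157 to 0.00818 with single arrays left out, reaching 0.000137 and 0.00818 without female replicates 2 and 11. That of Fasn turned to 0.0193 with quantile normalization, 0.0602 with beta-actin and 0.108 without the 5 arrays, and that of Thrsp to 0.0436 with quantile normalization.

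Female and male arrays share replicate numbers in the labels. With the number as a block, 1 gene was called in the sex difference at 10, and 0 at 0.1 and 1. Deviations of arrays with the same number correlated between -0.485 and 0.592 over 12 pairs, 5 of them over 0.1. These were the pairs numbered 4, 5 and 6, at 0.592, 0.445 and 0.457, and 10 and 11, at 0.451 and 0.558. Pairs 1, 2, 3, 7, 8, 9 and 12 lay below 0. Of 12 female arrays 0 correlated best with its own number. This check cannot tell whether arrays with the same number were handled together, since shared handling need not make them each other's best match. Signal over background cannot be judged from centred values.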
